A study of Mus musculus with 4 samples.

Results

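Described here are 33 genes of the desmosome, the tight junction and the epithelial cell surface in mouse embryonic stem (ES) cells with and without the transcription factor Klf5. They were chosen by name, with earlier results of these data known, out of 18193 genes named on the array. They fall into 4 groups: 8 desmosome genes, 15 tight junction genes, 6 epithelial regulators and 4 genes of surface proteases and their inhibitors. RNA from 2 Klf5 KO clones and 2 WT clones was hybridised to 1 Affymetrix array per clone. KO clones 1 and 2 are labelled as lacking Klf5, and WT clones 1 and 2 as wild type; all 4 were kept in serum-containing ES medium with LIF, the cytokine that holds mouse ES cells undifferentiated. How the gene was disrupted, the parental strain and the use of feeder cells are not stated in the labels. The stated purpose was to find genes lower without Klf5.

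Desmosomes are adhesive plaques that tie the intermediate filaments of neighbouring cells together: desmosomal cadherins bridge the gap, and plakophilins and desmoplakin link them to keratin filaments. Tight junctions seal the space between epithelial cells and are built from claudins, the MARVEL proteins occludin, tricellulin (Marveld2) and Marveld3, and cytoplasmic scaffolds such as ZO-1 (Tjp1). Mouse ES cells, like the inner cell mass and epiblast they come from, carry E-cadherin and Epcam and grow as compact colonies, and the first tight junctions and desmosomes of the embryo form in the trophectoderm.

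All values are intensities after quantile normalization, a step that gives each array the same distribution, and fold changes are on the log2(intensity + 16) scale, KO minus WT, which understates the change of dim genes. Klf5 itself read 34.8 and 49.9 in KO clones 1 and 2, against 2398 and 1782 in WT clones 1 and 2, a log2 fold change of -5.17 ± 0.22 (moderated SE; n = 2 arrays in each group, as for all fold changes; adjusted p = 3.3e-05 by limma), so its brightest probe set followed the labels. A dimmer one read 82.6 and 61.0 in KO and 102 and 88.6 in WT (-0.35, adjusted p = 0.36) and did not show the loss; which part of the transcript either covers, or was deleted, was not used here. The ES cell markers were bright on every array: the 9 markers summed to 33789 and 34606 in KO and 35864 and 36642 in WT, and 0 of them passed the test (limma; 1 at an unadjusted p under 0.05). Of 21 measured fibroblast and feeder cell markers, 17 rose in KO clones (81%, against 2.94% of all genes). The 21 summed to 17825 and 19018 in KO against 8540 and 6403 in WT. Trophectoderm markers had 0 rises and 1 fall among 10 measured, and primitive endoderm markers likewise 0 and 1 among 10. RNA integrity, read as the 3′ over 5′ log2 ratio of the beta-actin control, came to 0.75 and 0.52 in KO and 0.48 and 0.44 in WT. The same ratio of the Gapdh control was -0.33 and -0.29 in KO and -0.32 and -0.32 in WT. The p-values rest on the spread between the clones as labelled. For each gene this spread is drawn towards one pooled over all kept probe sets (2 residual and 6.87 prior degrees of freedom). In such bulk RNA, fewer cells of a type and less RNA per cell cannot be told apart.

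Of the 33 genes, 32 had at least 1 probe set above the filter on dim signals (a mean at or above the 40th percentile, an intensity of about 13.0). Cldn1, the claudin required for the barrier of the skin, did not: its 4 probe sets stayed under the filter intensity on every array. By limma at an adjusted p under 0.05, Pkp1 and Marveld3 rose in KO clones, 0 members fell and 30 did not pass. These 2 calls are 6.25% of the measured members, against 4.28% of all 13023 genes (2.94% higher and 1.34% lower in KO), and a share this near the background is not a result about the members. The directions depend on the scaling: after centring on the median, 1 member rose (Pkp1) and 3 fell (Dsp, Dsg2 and Cldn6), while Marveld3 was lost. At an unadjusted p under 0.05 there were 11 of 32, while the same held for 21.5% of all genes.

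The precision of the fit bounds what could have been missed. The 95% interval of the log2 fold change lay wholly between -1 and 1 for 26 of the 32 members (81.2%, against 83.8% of all genes). The scale understates the change of dim genes, so for these such an interval does not exclude a 2-fold change in intensity. The members whose intervals reached beyond -1 or 1 were Pkp1, Dsp, Dsg2, Marveld3, Cldn4 and Rab25. SEs ran from 0.18 to 0.30.

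**Figure D1:**
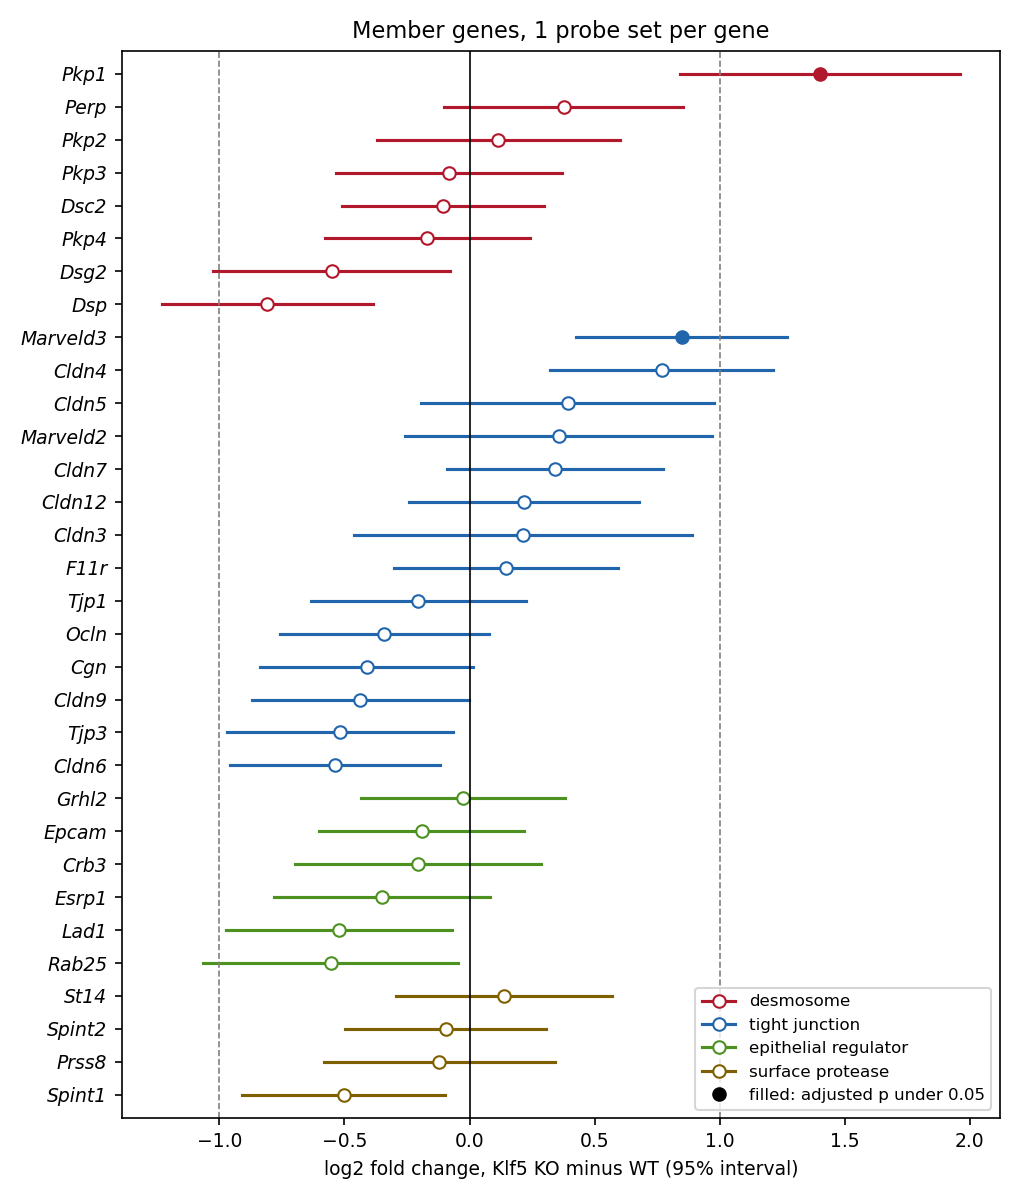
Log2 fold change (KO minus WT) of the 32 measured members with its 95% interval, 1 probe set per gene, grouped by role. Filled points passed the test. They are Pkp1 at 1.40 and Marveld3 at 0.85. The dashed lines mark -1 and 1, which 26 of the 32 intervals did not reach. For dim genes these lines stand for more than a 2-fold change in intensity.

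Sequences upstream of the gene start are shown for 4 members. Dsp and Cldn4 had the largest negative and the largest positive fold change among members with a window at hand. Spint1 and Cldn6 were picked by hand, not by size of change, from the 16 members whose KO clones both read below both WT clones. Each line holds the 250 bases before the RefSeq gene start (GRCm38.p6), 5′ to 3′ on the gene's own strand. Capitals mark matches to CCNCNCCC, the GC-rich core bound by Kruppel-like factors, on either strand and with overlaps joined. The windows are Dsp at chr13:38151044-38151293 (plus strand), Cldn4 at chr5:134946935-134947184 (minus strand), Spint1 at chr2:119237110-119237359 (plus strand) and Cldn6 at chr17:23679115-23679364 (plus strand).
Dsp: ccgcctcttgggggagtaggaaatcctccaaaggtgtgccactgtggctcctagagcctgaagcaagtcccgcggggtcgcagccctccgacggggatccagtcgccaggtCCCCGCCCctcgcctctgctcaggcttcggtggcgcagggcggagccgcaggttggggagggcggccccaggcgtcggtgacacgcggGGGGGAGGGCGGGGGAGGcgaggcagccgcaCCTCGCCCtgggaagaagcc
Cldn4: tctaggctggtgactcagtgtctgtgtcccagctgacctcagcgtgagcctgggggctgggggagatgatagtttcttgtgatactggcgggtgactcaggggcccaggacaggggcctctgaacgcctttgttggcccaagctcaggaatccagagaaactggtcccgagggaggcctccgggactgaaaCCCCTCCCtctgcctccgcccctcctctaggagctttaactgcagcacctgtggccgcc
Spint1: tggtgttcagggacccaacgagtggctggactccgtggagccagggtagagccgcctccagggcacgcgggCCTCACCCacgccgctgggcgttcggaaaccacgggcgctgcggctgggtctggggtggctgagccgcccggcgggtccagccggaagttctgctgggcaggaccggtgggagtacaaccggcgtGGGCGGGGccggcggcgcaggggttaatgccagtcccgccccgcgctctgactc
Cldn6: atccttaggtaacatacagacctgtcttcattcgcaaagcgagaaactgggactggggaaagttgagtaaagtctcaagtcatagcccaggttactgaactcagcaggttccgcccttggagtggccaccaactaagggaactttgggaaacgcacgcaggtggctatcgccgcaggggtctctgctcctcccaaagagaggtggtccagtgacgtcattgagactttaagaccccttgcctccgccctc

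Dsp held 5 matches, partly overlapping one another, Cldn4 held 1, Spint1 held 2 and Cldn6 held 0. Cldn3 (log2 fold change 0.21), Tjp1 (-0.21) and Cgn (-0.41) held 5 each. Dsp on its brightest probe set and Cldn4 did not pass (adjusted p = 0.051 and 0.070 by limma). Whether the number of matches goes with the fold change was not tested. GC content was 72.4% for Dsp, 62.0% for Cldn4, 72.8% for Spint1 and 53.6% for Cldn6. RefSeq windows were at hand for 21 of the 33 members, some genes having several that overlap, 29 windows in all. CCNCNCCC was found in 75.9% of these, in 63.8% of the windows of all measured genes and in 45.9% of all windows. The E-box CACCTG, a sequence bound by Snail and Zeb repressors, was found on either strand in 44.8% of members' windows, in 16.5% of those of measured genes and in 17.2% of all. Cldn4 and Cldn6 each held 1 such E-box, and Dsp and Spint1 held 0. AACNNGTT, the core of the grainyhead-like motif that Grhl2 binds, was found in 10.3% of members' windows (in Cgn, Cldn5 and Rab25), 2.93% of those of measured genes and 3.64% of all. A match is a run of letters, not a shown binding site.

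Among the desmosome genes, 1 of 8 rose, 0 fell and 7 did not pass (by limma, with 3 at an unadjusted p under 0.05). Over all genes, 4.28% passed and 21.5% had an unadjusted p under 0.05. The median log2 fold change was -0.094, against -0.024 over all genes. Pkp1, plakophilin 1, an armadillo-repeat plaque protein best known from the upper layers of the skin, read 23.7 and 49.4 in KO clones 1 and 2 against 2.63 and 3.996 in WT clones 1 and 2. Both KO arrays were above both WT arrays, and the KO clones differed from each other more than the WT clones did. The log2 fold change was 1.40 ± 0.25 (adjusted p = 0.019). Both WT values lay below the filter intensity, so this probe set was tested only because of its level in KO clones. With either KO clone left out it fell under the filter and gave no value, and without any filter its adjusted p was 0.12. In the same arrays 17 of 21 measured fibroblast markers rose (81%, against 2.94% of all genes). For 20 of the 21, both KO clones read above both WT clones (95.2%, against 25.9% of all genes). Dcn (2.14 and 2.90 in WT) and Col6a1 (11.7 and 9.27 in WT) also lay below the filter intensity in both WT clones. Like Pkp1, they were tested only because of their level in KO clones. The part of fibroblast RNA in the rise of Pkp1 was not tested.

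Dsp, desmoplakin, the linker between the plaque and keratin filaments, had 3 probe sets, and on each of them every KO clone read below every WT clone. The brightest, whose suffix _s_at marks probes that can match related transcripts, read 168 and 199.8 in KO against 345.5 and 321 in WT. Its difference of -0.81 ± 0.19 (log2) missed the threshold (adjusted p = 0.051), and over the alternative settings its adjusted p ran from 0.0031 to 0.24 with the value always negative (-1.09 to -0.61). The dimmest read 11.5 and 23.3 in KO and 62.9 and 63.5 in WT, and it fell, by 1.27 ± 0.21 (log2, adjusted p = 0.016). The third read 123 and 118.5 in KO and 184 and 143 in WT, with a log2 fold change of -0.38 ± 0.19 (adjusted p = 0.30). Which stretch of the transcript each one covers was not used here.

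**Figure D2:**
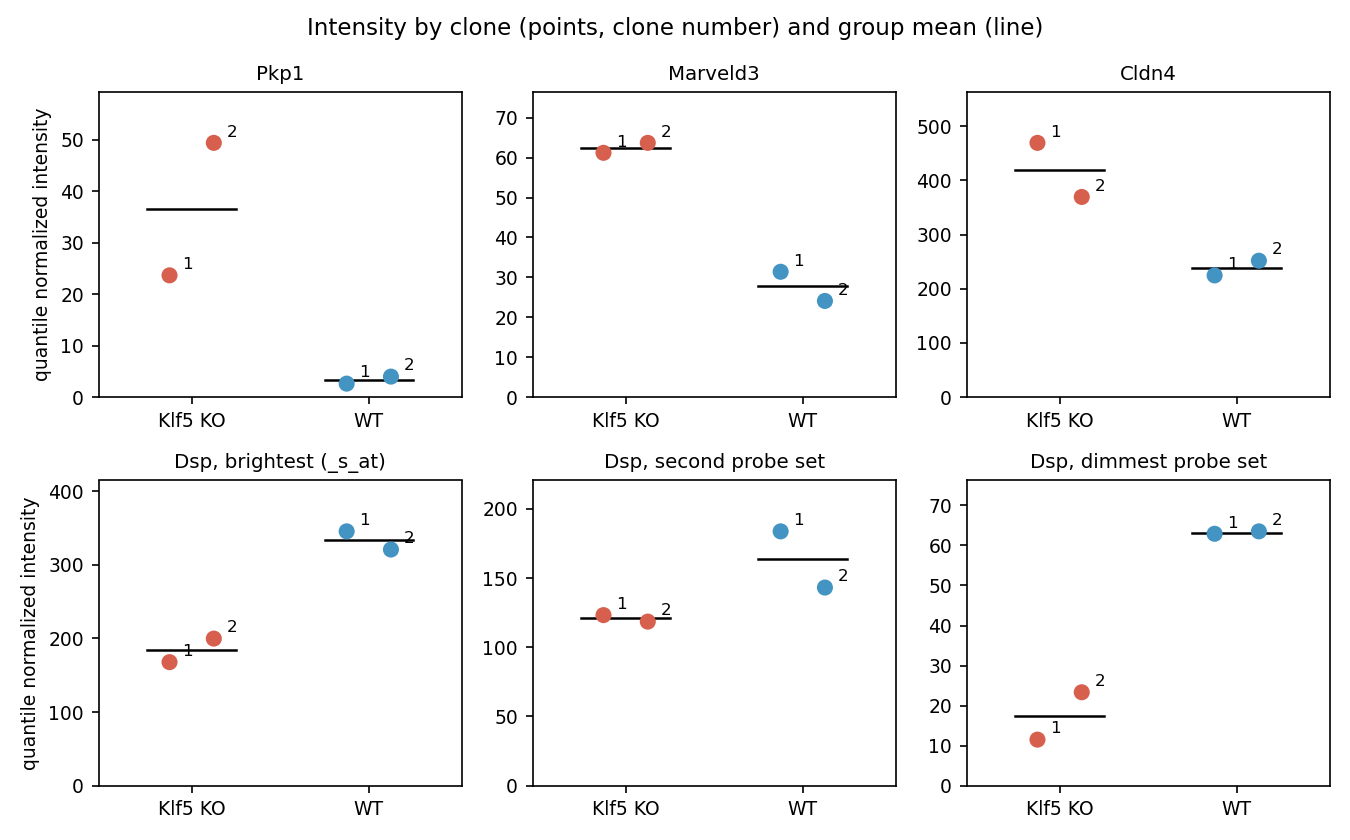
Quantile normalized intensity (linear axis from 0) of Pkp1, Marveld3, Cldn4 and the 3 Dsp probe sets in each clone; points are clones, lines are group means. In all 6 panels the KO and WT clones do not overlap, higher in KO for Pkp1, Marveld3 and Cldn4 and lower in KO for Dsp.

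The desmosomal cadherins did not pass. Dsg2, desmoglein 2, the broadly expressed desmoglein of simple epithelia, read 323.5 and 456 in KO and 562 and 579 in WT on its brightest probe set (log2 fold change -0.55 ± 0.21, adjusted p = 0.19). All 6 of its probe sets had negative values, from -0.55 to -0.23, and KO and WT clones overlapped on 2 of them. Dsc2, desmocollin 2, its usual partner, read 42.4 and 39.5 in KO and 43.8 and 46.9 in WT (-0.11, adjusted p = 0.78), and 17.2 and 20.0 in KO against 32.5 and 34.7 in WT on its dimmer probe set (-0.52, adjusted p = 0.15).

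The other plakophilins did not pass on any measured probe set. Pkp2, the plakophilin of heart and simple epithelia, read 749.5 and 924 in KO and 661 and 890 in WT (log2 fold change 0.11, 95% interval -0.37 to 0.60). It had 4 probe sets with values of both signs, from -0.11 to 0.58, and the interval of the highest, which read 26.0 and 25.1 in KO and 13.1 and 10.4 in WT, ran from 0.18 to 0.99 (adjusted p = 0.12). Pkp3 read 78.5 and 75.6 in KO, between the 69.9 and 96.9 of the WT clones (-0.081, interval -0.53 to 0.37), while its dimmer probe set read 10.2 and 10.6 in KO against 29.3 and 19.6 in WT (-0.60, interval -1.05 to -0.16, adjusted p = 0.13). Pkp4, which also sits at adherens junctions, read 885 and 969 in KO and 1090 and 998 in WT (-0.17, interval -0.58 to 0.24), and 152 and 191 in KO against 252 and 241 in WT on its dimmer probe set (-0.49, interval -0.92 to -0.060, adjusted p = 0.19). Perp, a tetraspan membrane protein of desmosomes and a p53 target, read 660 and 543 in KO and 530 and 395 in WT. Its KO arrays stood above its WT arrays by only the gap between 543 and 530, and its log2 fold change of 0.38 ± 0.21 did not pass (adjusted p = 0.35).

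**Figure D3:**
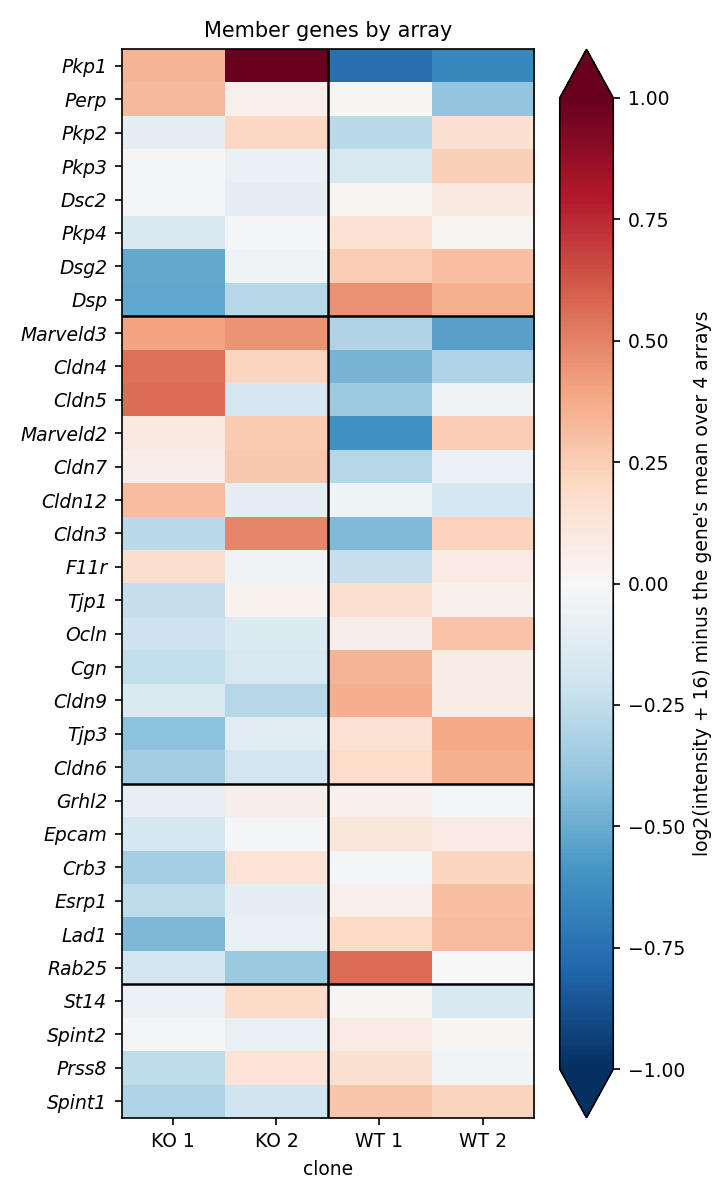
Log2(intensity + 16) of the 32 measured members in each clone, minus the gene's own mean over the 4 arrays; horizontal lines part the groups by role and colours are capped at 1 either way. KO clone 2 is the highest array for Pkp1. Within the epithelial regulators at the lower part of the map, KO clone 1 is below the gene's mean for all 6.

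Of the 14 measured tight junction genes, 1 rose, 0 fell and 13 did not pass (limma; 5 at an unadjusted p under 0.05), with a median of 0.18. The called share was 7.14%, against 4.28% of all genes, and 21.5% of all genes had an unadjusted p under 0.05. The median of all genes was -0.024. On the values as deposited the median of these 14 was -0.16, beside -0.23 over all genes. After centring on the median it was -0.12, beside -0.19. Marveld3, a MARVEL-domain protein of the tight junction that also restrains JNK signalling, read 61.2 and 63.7 in KO clones and 31.4 and 24.1 in WT clones. Both KO arrays were about alike and both above WT. The log2 fold change was 0.85 ± 0.19 (adjusted p = 0.043), and the call was lost with any of the 4 arrays left out (adjusted p = 0.081 and 0.20 when WT clones 1 and 2 were dropped, 0.17 and 0.115 when KO clones 1 and 2 were). It was also lost with a pseudocount of 1, with no filter, on the values as deposited and after centring on the median. Its other 2 probe sets were below the filter, and the share of fibroblast RNA in this rise was not tested.

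The other MARVEL proteins had small, uncalled differences. Marveld2, tricellulin, which seals the points where 3 cells meet, read 38.0 and 44.9 in KO and 17.4 and 44.1 in WT. WT clone 1 stood apart, and without it the log2 fold change of 0.36 turned to -0.060. Ocln, occludin, read 47.7 and 50.7 in KO and 60.3 and 73.3 in WT (-0.34, interval -0.76 to 0.077), with no overlap between the groups.

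The claudins, the strands of the junction, were split in sign. Cldn4, a claudin of tight epithelia, read 469 and 369.5 in KO and 225 and 252 in WT. Both KO clones were well above both WT clones, but its log2 fold change of 0.77 ± 0.20 missed the threshold (adjusted p = 0.070). It stayed positive under every alternative run, from 0.46 to 0.97, and passed under 4 of them (adjusted p = 0.018 with a pseudocount of 64, 0.035 under the filter at the 60th percentile, 0.024 under a variance trend and 0.025 for averaged probe sets).

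Cldn7 read 175 and 203 in KO and 133 and 158 in WT (log2 fold change 0.34, interval -0.088 to 0.77). Cldn5, the claudin of blood vessels, read 96.2 and 52.0 in KO and 43.4 and 58.6 in WT, so that only KO clone 1 was high (0.39, interval -0.19 to 0.98). Cldn12, a claudin without the usual scaffold-binding tail, read 971 and 732 in KO and 759 and 688 in WT (0.22, interval -0.24 to 0.68; -0.12 on the values as deposited and -0.082 after centring on the median). Cldn3 read 57.6 and 108.5 in KO and 49.4 and 88.3 in WT on the probe set that stood for it (0.21, interval -0.46 to 0.89), in each group with clone 2 higher, and its 4 probe sets ranged from -0.20 to 0.21.

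Cldn6 and Cldn9, neighbouring paralogs whose transcripts may cross-hybridise, were the claudins below 0 among the members. Cldn6, a claudin of embryonic epithelia and of pluripotent cells, read 176 and 199 in KO and 262 and 298 in WT, a log2 fold change of -0.54 ± 0.18 (adjusted p = 0.15; 0.049 after centring on the median). Cldn9 read 36.5 and 31.6 in KO and 58.8 and 45.3 in WT (-0.44, adjusted p = 0.24), and its dimmer probe set had -0.65 (adjusted p = 0.18). KO and WT clones did not overlap for either gene.

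The junction's scaffold and adhesion proteins did not pass. Tjp1 (ZO-1), the main scaffold, read 844 and 1021 in KO and 1119 and 1028 in WT (log2 fold change -0.21, interval -0.63 to 0.22). Tjp3 (ZO-3), its epithelial relative, read 31.6 and 42.9 in KO and 53.9 and 66.1 in WT (-0.52, adjusted p = 0.19), and Cgn, cingulin, which ties the junction to actomyosin, read 114 and 122 in KO and 179 and 146.5 in WT (-0.41, adjusted p = 0.26). For all 3 the KO clones lay below the WT clones, for Tjp1 by little. F11r (JAM-A), an immunoglobulin-like adhesion molecule, read 834 and 718 in KO and 625 and 780 in WT, overlapping (0.15, interval -0.30 to 0.59; -0.20 on the values as deposited, -0.16 with median centring and -0.013 without WT clone 1).

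Of the 6 epithelial regulators, 0 passed (by limma, with 2 at an unadjusted p under 0.05), against 4.28% and 21.5% of all genes. All 6 had negative values and the median was -0.28, against -0.024 over all genes. Centred on ES cell markers, Epcam (0.011) and Grhl2 (0.18) became positive. Grhl2, the grainyhead-like transcription factor that maintains junction genes in epithelia, read 231.5 and 257 in KO and 254.5 and 243 in WT, a log2 fold change of -0.026 with a 95% interval of -0.43 to 0.38. Epcam, the homophilic surface glycoprotein of epithelia and ES cells, read 765 and 856 in KO and 937 and 915 in WT (-0.19, interval -0.60 to 0.22), and 123 and 82.6 in KO against 81.9 and 89.7 in WT on a dimmer _x_at probe set (0.20). Esrp1, the splicing factor of the epithelial isoform programme, read 299.6 and 337 in KO and 373 and 449 in WT (-0.35, interval -0.78 to 0.081).

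Rab25 and Lad1 also had negative values. Rab25, a recycling GTPase of epithelia, read 31.4 and 25.5 in KO and 63.2 and 37.7 in WT, with WT clone 1 well above the rest (log2 fold change -0.56 ± 0.23, adjusted p = 0.21). Without WT clone 1 its value was -0.26, and without WT clone 2 it was -0.845. Lad1, ladinin, a filament-associated protein first found at the basement membrane, read 123 and 164.5 in KO and 202.5 and 221 in WT (-0.52 ± 0.20, adjusted p = 0.19), without overlap. Crb3, the apical polarity protein of epithelial cells, had 3 probe sets of both signs, from -0.21 to 0.22, and the one that stood for it read 50.5 and 76.6 in KO and 67.6 and 82.0 in WT.

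Of the surface protease genes, 0 of 4 passed (by limma, with 1 at an unadjusted p under 0.05), with a median of -0.11. The matching shares over all genes were 4.28% and 21.5%, and their median was -0.024. St14 (matriptase), a membrane serine protease of epithelia, read 266.5 and 320 in KO and 281 and 248 in WT (log2 fold change 0.14, interval -0.29 to 0.57; -0.16 on the values as deposited and -0.12 after centring on the median). Prss8 (prostasin), which acts with matriptase in one cascade, read 20.8 and 32.2 in KO and 32.7 and 27.0 in WT (-0.12, interval -0.58 to 0.34). Their inhibitors are Spint1 and Spint2. Spint1 (HAI-1) read 263.5 and 286 in KO and 404 and 388 in WT, with the clones of each group close together and the groups apart (-0.50 ± 0.18, adjusted p = 0.16), while Spint2 (HAI-2) read 442 and 423 in KO and 473 and 452 in WT (-0.095, interval -0.50 to 0.31).

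Without regard to the test, both KO clones lay below both WT clones for 16 of 32 members (50%, against 29.7% of all genes) and above them for 5 (15.6%, against 25.9%). The 2 directions together made 65.6% of members and 55.6% of all genes. As the members were chosen with earlier results of these data known, such shares are descriptions and not tests. A total of 20 members (62.5%) had a negative value, against 52.8% of all genes, and the number was 24 on the values as deposited and after centring on the median, and 13 after centring on ES cell markers. The median of the members was -0.11, and that of all genes -0.024, a difference of -0.089. Those scalings shifted the median of all genes to -0.23, -0.19 and 0.18, and the members' median to -0.32, -0.28 and 0.089. The difference between the medians was then -0.092, -0.092 and -0.089. Clone by clone, KO minus the WT mean, the members' median was -0.20 for the first KO clone and -0.087 for the second, beside -0.042 and -0.0014 over all genes.

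**Figure D4:**
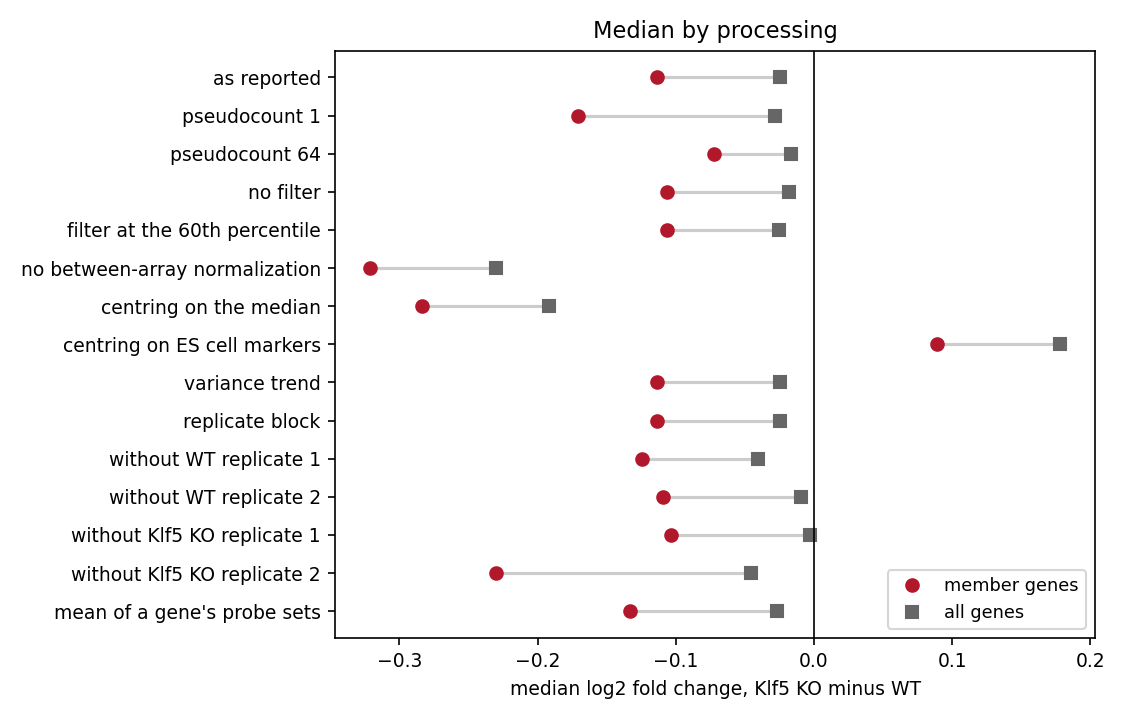
Median log2 fold change (KO minus WT) of the member genes (circles) and of all genes (squares) as reported and under each alternative. The circle lies to the left of the square in every line, by 0.089 as reported, and both lie above 0 only after centring on ES cell markers.

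Where 14 members had more than 1 measured probe set, the probe sets had one sign for 10 and both signs for 4 (Cldn3, Crb3, Epcam and Pkp2). Of the 58 measured probe sets of the members, 3 passed (3.69% of all probe sets did): those of Pkp1 and Marveld3 and the dimmest of Dsp.

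Further junction genes were listed with earlier results of these data known. Of 26 measured, 0 rose and 1 fell, a share of 3.85%, against 4.28% of all genes, with a median of -0.073. Both KO clones lay below both WT clones for 30.8% of these 26, against 29.7% of all genes. Ildr1, an angulin of tricellular junctions, read 47.4 and 62.5 in KO and 128 and 107 in WT and fell, by 0.91 ± 0.20 (log2, adjusted p = 0.041), a call lost when any array was dropped (adjusted p between 0.076 and 0.215), with a pseudocount of 1 (0.13), with no filter (0.14), on the values as deposited (0.16) and when centred on ES cell markers (0.091). Cldn2, the cation-pore claudin, read 1.62 and 15.2 in KO and 15.8 and 26.4 in WT (-0.65, adjusted p = 0.24). Mpdz, a multi-PDZ scaffold of the tight junction, read 64.2 and 62.6 in KO and 34.7 and 24.6 in WT (0.81, adjusted p = 0.057), although its other measured probe set had -0.10, and Jam3, a junctional adhesion molecule that fibroblasts and endothelium also make, read 167 and 130 in KO and 77.6 and 90.8 in WT (0.71, adjusted p = 0.091). Jup, plakoglobin, which is shared by desmosomes and adherens junctions, had 0.080 (adjusted p = 0.86).

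Of 18 further epithelial genes measured, 0 rose, 1 fell and 17 did not pass (by limma, with 7 at an unadjusted p under 0.05). The called share was 5.56%, against 4.28% of all genes, and 21.5% of all genes had an unadjusted p under 0.05. The median of the 18 was -0.32, against -0.024 over all genes. All 18 had negative values, against 52.8% of all genes. Both KO clones lay below both WT clones for 12 of the 18 (66.7%, against 29.7% of all genes). After centring on ES cell markers, only 12 of 18 values were negative. With WT clone 1 dropped 17 of 18 were negative, and with KO clone 1 dropped 15 of 19. This list, too, was chosen with earlier results of these data known. Krt18, the type I keratin of simple epithelia to which desmosomes attach, read 597 and 726 in KO and 1306 and 1180 in WT and fell, by 0.90 ± 0.19 (log2, adjusted p = 0.038; 0.144 with a pseudocount of 1, 0.13 with no filter, 0.069 on the values as deposited, 0.086 after centring on ES cell markers, between 0.076 and 0.21 with 1 array dropped). Krt19 read 59.9 and 101 in KO and 152 and 194 in WT, a difference of -0.99 ± 0.24 (log2) short of the threshold (adjusted p = 0.061). Cdh1, E-cadherin, read 2242 and 2279 in KO and 2715 and 2351 in WT (-0.16, adjusted p = 0.67).

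Of 7 transcription factors known to repress junction genes, 2 rose, 0 fell and 5 did not pass, with a median of 0.62. The called share was 28.6%, against 4.28% of all genes. These 7 were listed with earlier results of these data known, so this share is a description and not a test. Twist2, a bHLH factor of mesenchyme and dermal fibroblasts, read 109 on both KO clones and 15.5 and 19.4 in WT and rose by 1.91 ± 0.18 (log2, adjusted p = 0.00089). Snai2 (Slug) read 54.8 and 48.7 in KO and 21.9 and 22.4 in WT and rose by 0.83 ± 0.18 (adjusted p = 0.041). That call was lost when any array was dropped (log2 fold change 0.77 to 0.91). It was also lost with a pseudocount of 1 (adjusted p = 0.087) or 64 (0.060) and with no filter (0.12). The same held on the values as deposited (0.49) and after centring on the median (0.0502). The call was kept under a variance trend, with clone number as a block, after centring on ES cell markers and with probe sets averaged. A brighter _x_at probe set read 152.8 and 181.5 in KO and 48.11 and 56.05 in WT and rose by 1.43 (adjusted p = 0.0048). Fibroblasts express both Twist2 and Snai2, 17 of 21 fibroblast markers rose in the same arrays, and the part of such cells was not tested. Snai1, the lowest of the 7, had 0.053 (adjusted p = 0.90), at 56.6 and 67.1 in KO and 63.2 and 54.8 in WT. All 7 values were above 0, and for 5 both KO clones lay above both WT clones (71.4%, against 25.9% of all genes).

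**Figure D5:**
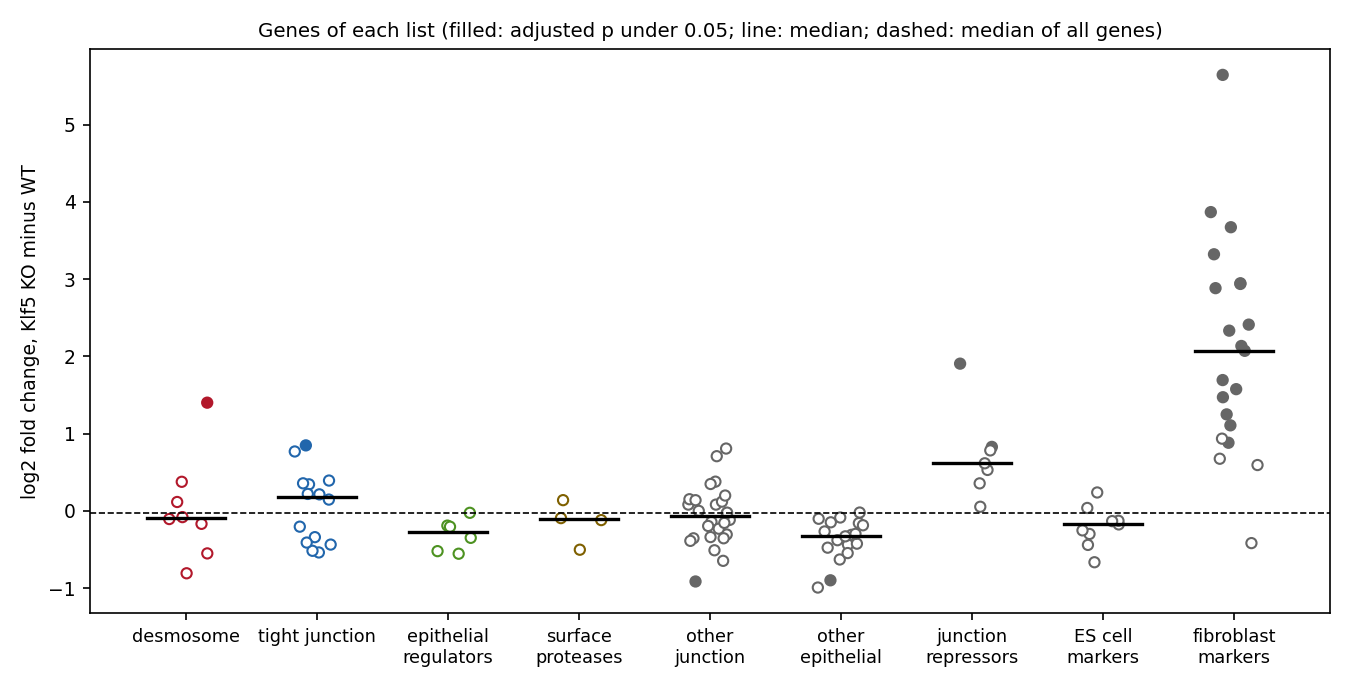
Log2 fold change (KO minus WT) of each measured gene by list, with the median as a line and the median of all genes (-0.024) dashed; filled points passed the test. The 4 lists of members have medians from -0.28 to 0.18, and all 6 epithelial regulators lie below 0. The fibroblast markers reach a median of 2.07.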

How the data were processed

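The data were 4 Affymetrix arrays of mouse ES cells, 2 Klf5 KO and 2 WT clones, grouped by their titles. The deposited table holds 1 linear intensity per probe set and array (45101 rows, 64 of them controls). How the authors summarised the probes, corrected background or scaled the arrays is not stated. The deposited trimmed means (2% removed at each end) were 138 and 150.5 in KO clones 1 and 2 and 227 and 139 in WT clones 1 and 2. No detection calls were used, and the number of arrays limits the precision.

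Intensities were quantile normalized (limma 3.58.1, R 4.3.3) and log2(intensity + 16) was taken. Control probe sets and those with a mean below the 40th percentile were left out (27022 remained). The variance-moderated linear model (lmFit and eBayes, 6.87 prior degrees of freedom) gave KO minus WT, with Benjamini-Hochberg adjustment over every probe set kept and a threshold of 0.05. The script was tested on simulated data. Over all probe sets, 996 passed (659 higher and 337 lower in KO), 3.69%. After centring on the median the split was 640 higher and 1420 lower, and after centring on ES cell markers 954 and 103.

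Probe sets were named from the platform annotation, with 34945 having 1 symbol, 932 several and 9160 none. Of these, 34741 gene IDs matched the RefSeq table (GRCm38.p6), which changed no symbol. Each of the 13023 genes was read from its probe set of highest mean, with _x_at probe sets used last. Every member is named, and of each related list up to 2 genes each way, by call and then by size. Jup, Cdh1 and Snai1 were named after their values were seen. The members and lists were chosen with earlier results of these data known.

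Motifs were searched in the first 250 bases of the 300-base RefSeq promoter windows, which leaves out the 50 bases after the start. The labels do not say whether a clone number marks a shared day or parent. Deviations from the group means correlated at 0.05 between arrays of one number, over 27022 probe sets. With 2 clones per group this value cannot show whether the numbers pair the arrays. The alternatives changed the pseudocount (1 or 64), the filter (none, or the 60th percentile), the scaling (values as deposited, or median centring), the variance prior (a trend), the design (clone number as a block), the arrays (each dropped in turn) and the gene summary (mean of its probe sets). Centring on the 9 ES cell markers was chosen after seeing the data.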

Additional observations from a re-analysis of the deposited data

How the results depend on the processing

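With 2 clones per group the counts of calls moved with most settings. The 2 members called became 0 with a pseudocount of 1 and with no filter, 1 on the values as deposited, and 4 with a pseudocount of 64, with a variance trend and with probe sets averaged by gene (3 rises and 1 fall in each), and with median centring (1 rise and 3 falls). With 1 array left out the count was 0 to 1, where the lone array of a group is assumed to vary like the other group. With clone number as a replicate block it was 3, as Dsp passed too (adjusted p = 0.0445), and the count over all probe sets was 1390. Over all probe sets, 996 calls became 189 with a pseudocount of 1, 2060 with one of 64, 190 with no filter, 332 on the values as deposited, 2060 with median centring, 1955 with a variance trend and 203 to 653 with 1 array left out. The members' median of -0.11 became -0.32 on the values as deposited, -0.28 with median centring, 0.089 when centred on ES cell markers and -0.23 to -0.10 with 1 array left out. The cause was not tested.

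Of 560 values of single named genes under the alternatives, 472 kept their sign and side of the threshold, 34 lost and 25 gained a call, and 29 turned sign, all of them of genes that had not passed. On the values as deposited, Pkp2 had -0.22, Cldn12 -0.12, F11r -0.20 and St14 -0.16. With median centring these had -0.19, -0.082, -0.16 and -0.12. Centred on ES cell markers, Dsc2 had 0.096, Pkp3 0.12, Pkp4 0.034, Epcam 0.011, Grhl2 0.18, Prss8 0.082 and Spint2 0.11. With probe sets averaged, Cldn3 had -0.011, Epcam 0.0052 and Crb3 0.060. With 1 array left out, values of both signs were given by Pkp2 (-0.091 to 0.33), Pkp3 (-0.26 to 0.12), Cldn3 (-0.17 to 0.61), Marveld2 (-0.060 to 0.80), F11r (-0.013 to 0.30), Grhl2 (-0.099 to 0.046), Crb3 (-0.45 to 0.033) and Prss8 (-0.32 to 0.076). Pkp1 fell under the filter, and gave no value, with a pseudocount of 1, with the stricter filter and without either KO clone. Dim signals limit Cldn1, Pkp1, Cldn2 and the dimmest Dsp probe set among others, as each read below the filter intensity of 13.0 on at least 1 array.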
